A study of Mus musculus with 6 samples.

Results

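The transcripts described here encode enzymes that modify collagen: the lysyl oxidases Lox, Loxl1, Loxl2, Loxl3 and Loxl4, the catalytic alpha subunits of collagen prolyl 4-hydroxylase P4ha1, P4ha2 and P4ha3, and the lysyl hydroxylases Plod1 and Plod2. The 10 genes were taken by symbol from the 28043 genes of the tables, whatever their values. They were measured by sequencing polyadenylated RNA of mouse primary retinal pigment epithelium (RPE) cells, the pigmented layer that supports the photoreceptors. Libraries labelled Normal (3) came from normal mice. Those labelled PVR (3) came from mice with proliferative vitreoretinopathy, a disorder of the injured eye in which cellular membranes form on the retina and contract. The series title calls the disorder traumatic. The labels used here name no way of producing it, no time after injury, no genotype, strain or age, and no pooling of animals. The question for each enzyme was whether its transcript differed between the PVR and Normal cells.

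Collagen chains are hydroxylated on proline and lysine in the endoplasmic reticulum, by enzymes that need iron, ascorbate and 2-oxoglutarate. Hydroxyproline keeps the triple helix stable at body temperature, and hydroxylysine carries sugars and takes part in crosslinks. After secretion and trimming, copper-dependent lysyl oxidases convert lysine and hydroxylysine to aldehydes, which then react into the crosslinks that stiffen collagen and elastin fibres. In the eye, Loxl1 is known for its link to exfoliation syndrome, and collagen deposition is a feature of vitreoretinal scar membranes.

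The libraries held 15269983 to 19173187 gene reads each. Each value below is a normalised read count, meaning reads divided by 1 size factor per library, and means are given ± SD (n = 3). Changes are on log2(normalised count + 1), PVR minus Normal, with the standard error (SE); this scale understates changes of genes with few reads. Adjusted p-values are from limma, by Benjamini-Hochberg over the 15766 genes tested, with calls at 0.05. Since no label says that replicates were separate animals, these p-values measure only the spread between libraries, which may be technical. In bulk RNA, fewer cells of a type and less RNA per cell cannot be told apart. The RPE label was checked against markers of these cells: Rpe65, the retinoid isomerase of these cells, was at 86793 ± 3425 in Normal and 31775 ± 5689 in PVR, a log2 change of -1.46 (SE 0.14, limma adjusted p = 0.00012). Of 15 RPE markers tested, 6 fell and 2 rose, where 12.9% of all tested genes were called lower and 17.9% higher. Best1, a channel gene of these cells, was low in both groups (12.0 ± 1.64 and 15.6 ± 7.65). The PVR 3 library lay nearer to Normal (correlation of log2 values 0.929 to 0.935) than PVR 1 and PVR 2 did (0.880 to 0.893), and Normal 2 had the lowest correlations within its group (0.969 and 0.972).

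Of the 10 enzymes, 7 were called higher in PVR (Lox, Loxl2, Loxl3, P4ha2, P4ha3, Plod1 and Plod2), against 17.9% of all tested genes. By limma 0 were called lower, against 12.9% of all tested genes. The count of falls was also 0 at an unadjusted p under 0.05 and by edgeR and DESeq2. The same 7 were above every Normal library in all 3 PVR libraries, as were 24.7% of all tested genes. Loxl1, Loxl4 and P4ha1 overlapped between the groups. The median log2 change over the 10 was 1.36, and over all tested genes -0.02. P4ha3 passed the filter on low counts only through its PVR libraries. Without it 6 of 9 were called. Each of the 7 kept its call in all 17 alternative analyses.

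**Figure D1:**
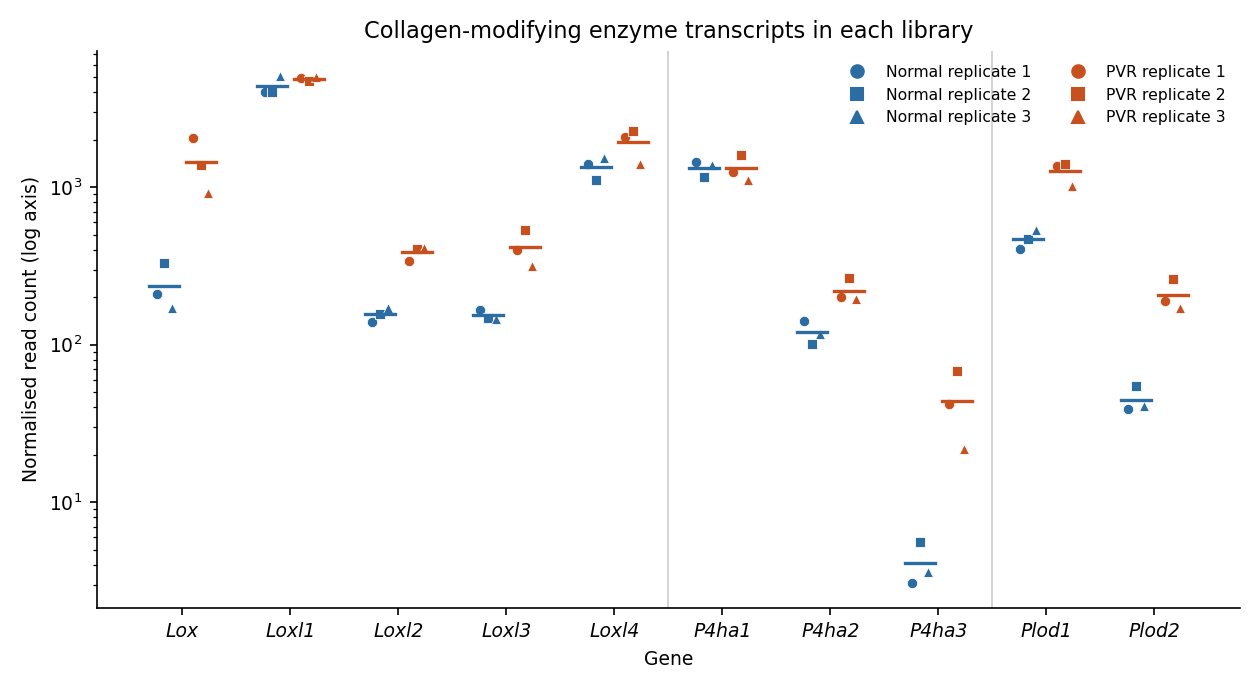
Normalised read count of each enzyme transcript (log axis) in the 3 Normal and 3 PVR libraries, 1 point per library. The PVR points of Lox, Loxl2, Loxl3, P4ha2, P4ha3, Plod1 and Plod2 lie above all Normal points, and those of Loxl1, Loxl4 and P4ha1 overlap them.

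Among the lysyl oxidases, Lox, the founding member and the main crosslinker of fibrillar collagen and elastin, had the largest rise. Its gene lies on chromosome 18 at 52516067 to 52529867 (GRCm38, minus strand). Lox was at 210.3, 329.7 and 172 normalised counts in Normal 1, 2 and 3, and at 2044, 1384 and 924 in PVR 1, 2 and 3. The lowest PVR library was well above the highest Normal library, with PVR 1 highest and PVR 3 lowest in their group. The means of 237 ± 82.2 and 1450.5 ± 563 differ 6.11-fold, a log2 change of 2.59 (SE 0.36, limma adjusted p = 0.00285, 95% interval 1.72 to 3.45). Across the alternatives the log2 change of Lox ranged from 2.30 to 3.14 and its adjusted p reached at most 0.0213.

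Loxl2 and Loxl3 carry scavenger receptor domains before their catalytic domain, and Loxl2 is known to act on collagen IV of basement membranes. Loxl2 (chromosome 14, 69609068 to 69695834, plus strand) was at 140.2, 157 and 170.4 normalised counts in the Normal libraries and at 339.8, 408 and 412 in the PVR libraries. The values within each group were close, and the groups were well apart. The change was 2.48-fold, from 156 ± 15.1 to 386 ± 40.4 (log2 1.31, SE 0.15, limma adjusted p = 0.000284). Loxl3 (chromosome 6, 83034173 to 83052562, plus strand) was at 166, 148 and 146 in Normal and at 402, 536 and 315 in PVR. Here the Normal libraries were nearly level, and PVR 3 was the lowest PVR library, still above all of them. The means of Loxl3 were 153 ± 11.0 and 418 ± 112, a log2 change of 1.41 (SE 0.20, limma adjusted p = 0.000709). Loxl3 shares 535 of its 4603 exon bases with Htra2 on the opposite strand, and the sources used here do not say whether counting used strand. Htra2 itself was at 316, 298 and 227 in Normal and 255, 227 and 262 in PVR. Loxl2 shares 301 bases with Gm27177, which had at most 7.21 normalised counts in any library.

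Loxl1 and Loxl4 were the abundant lysyl oxidases of the Normal cells. Loxl1, which acts on elastic fibres, lies on chromosome 9 at 58287738 to 58313186 (minus strand). Its values were 4045, 4023 and 5076 normalised counts in Normal and 4902, 4722 and 5001 in PVR. Normal 3 was the highest of all 6, so the groups overlapped. The log2 change was 0.16 (SE 0.12, limma adjusted p = 0.323), with a 95% interval of -0.10 to 0.42. For Loxl4, another scavenger receptor domain member (chromosome 19, 42593982 to 42612813, minus strand), Normal gave 1405, 1110.4 and 1522 and PVR gave 2079, 2286 and 1407. PVR 1 and PVR 2 were above every Normal library, while PVR 3 lay among them. The log2 change of Loxl4 was 0.50 (SE 0.20, limma adjusted p = 0.0891, 95% interval 0.05 to 0.95), which was not called. Loxl4 was called in 4 of 17 alternatives. Leaving out PVR 3 gave log2 0.71 (limma adjusted p = 0.00665), and DESeq2 gave an adjusted p of 0.0341. Replicates 1 and 2 only gave log2 0.80 (limma adjusted p = 0.00919). Leaving out Normal 2 and PVR 3 gave log2 0.58 (limma adjusted p = 0.0151). Over the alternatives the adjusted p of Loxl4 ranged from 0.00665 to 0.240.

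Collagen prolyl 4-hydroxylase is a tetramer of alpha subunits, which carry the active site, and P4hb subunits, also known as protein disulfide isomerase. Of the 3 alpha subunit genes, P4ha1 was not called, and P4ha2 and P4ha3 were called higher, so their upstream sequences are printed for comparison. These are the 250 bases before the RefSeq transcription start (GRCm38.p6, plus strand in all 3). For P4ha2 the start used lies inside the annotated gene, which begins at 54100095, so the bases before that gene start were not searched. Capitals mark the hypoxia response cores ACGTG and GCGTG, read on either strand, since hypoxia is a known regulator of this gene family.
P4ha1, chr10:59323046-59323295: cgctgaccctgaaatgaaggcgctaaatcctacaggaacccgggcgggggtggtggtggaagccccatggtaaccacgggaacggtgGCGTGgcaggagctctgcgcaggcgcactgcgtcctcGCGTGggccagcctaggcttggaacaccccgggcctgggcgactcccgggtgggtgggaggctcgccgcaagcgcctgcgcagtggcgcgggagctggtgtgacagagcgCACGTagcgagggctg
P4ha2, chr11:54100674-54100923: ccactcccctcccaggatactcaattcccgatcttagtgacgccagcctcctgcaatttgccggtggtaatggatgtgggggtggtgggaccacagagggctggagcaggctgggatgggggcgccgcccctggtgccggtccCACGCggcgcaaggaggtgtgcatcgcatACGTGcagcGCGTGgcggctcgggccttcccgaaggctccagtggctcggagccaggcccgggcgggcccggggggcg
P4ha3, chr7:100285270-100285519: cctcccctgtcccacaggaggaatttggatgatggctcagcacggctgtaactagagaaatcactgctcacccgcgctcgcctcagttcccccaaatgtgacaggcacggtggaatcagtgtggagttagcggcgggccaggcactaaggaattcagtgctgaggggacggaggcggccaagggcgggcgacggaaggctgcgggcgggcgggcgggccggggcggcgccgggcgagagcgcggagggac
P4ha1 held 3 such cores, starting at -163, -126 and -16 from the start site, P4ha2 held 3 at -107, -78 and -69, and P4ha3 held 0. Of 27025 mouse promoters of the same length, 38.6% held at least 1 core (16.6% ACGTG and 28.2% GCGTG). The upstream windows of Loxl4 and Plod1 held 1 core each, and windows were matched for 5 of the 10 genes. No match to the AP-1 motif TGACTCA (4.43% of promoters) or the TEAD motif GGAATG (12.6%) was found in the 5, on either strand. The NFAT core GGAAA (55.6% of promoters) was found in Plod1 alone, and the SMAD box CAGAC (42.1%) in Loxl4 and Plod1. The SP/KLF motif GGGCGG (32.9%) was found in all 5, from 1 match in P4ha1 to 5 in P4ha3. GC content of the 5 windows was 61.6 to 76.0%, against a median of 52.0% over the 27025 promoters. These matches are letters only and do not show binding.

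P4ha1, the widely expressed alpha subunit, was not called. The gene lies on chromosome 10 at 59323296 to 59373304 (plus strand), and its values were 1454, 1159 and 1383 normalised counts in Normal and 1242, 1607 and 1118 in PVR. PVR 2 was the highest and PVR 3 the lowest of all 6 libraries, so the PVR group spanned the Normal one. The log2 change was -0.02 (SE 0.15, limma adjusted p = 0.932), with a 95% interval of -0.35 to 0.31, and its sign turned without Normal 1 (0.05), Normal 3 (0.01), PVR 1 (0.02) or PVR 3 (0.09). P4ha2 (chromosome 11, 54100095 to 54131665, plus strand), the second alpha subunit and prominent in cartilage, was at 141, 101 and 117 in Normal and at 199.8, 267 and 196 in PVR. All PVR libraries were above all Normal ones, with PVR 2 highest. The means of 119.7 ± 20.3 and 221 ± 39.8 differ 1.84-fold (log2 0.88, SE 0.20, limma adjusted p = 0.00866), the smallest rise among the 7 called enzymes.

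P4ha3, the third alpha subunit (chromosome 7, 100285520 to 100319699, plus strand), was close to the detection limit in Normal cells. It was at 3.09, 5.56 and 3.63 normalised counts there, from 3, 6 and 4 reads, and at 42.2, 68.3 and 21.7 in PVR, from 41, 60 and 23 reads. Every PVR library was above every Normal library, and PVR 3 was the lowest of the PVR group. A count of 0 allows 2.72 to 3.42 normalised counts (3 reads) at these depths, so the Normal values sit at or just above that limit. The ratio of pooled normalised reads (124 against 13 reads) was 10.3, with an exact 95% interval of 5.83 to 19.97 that covers counting error only. The log2 change was 3.03 (SE 0.51, limma adjusted p = 0.00179), the largest of the 10 with a pseudocount of 1, and it varied from 2.01 to 3.65 over the alternatives. With a pseudocount of 8 it was 2.01, below Lox (2.55) and Plod2 (2.02).

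The lysyl hydroxylases rose in PVR. Plod1, which mainly hydroxylates lysines of the collagen helix (chromosome 4, 147909753 to 147936767, minus strand), was at 404, 468 and 538 normalised counts in Normal and at 1355, 1404 and 1025 in PVR. All 3 PVR libraries were well above the highest Normal library. The change was 2.68-fold, from 470.0 ± 67.2 to 1261 ± 206 (log2 1.42, SE 0.15, limma adjusted p = 0.000203). Plod2, the hydroxylase of the telopeptides, whose hydroxylysines form the stable crosslinks typical of fibrosis, lies on chromosome 9 at 92542223 to 92608428 (plus strand). It was at 39.2, 54.6 and 40.8 in Normal and at 190.5, 261 and 172 in PVR. The lowest PVR library again was PVR 3, and the groups were far apart. Its means of 44.9 ± 8.51 and 208 ± 46.9 differ 4.63-fold (log2 2.18, SE 0.24, limma adjusted p = 0.000242). Plod2 shares 346 exon bases with Gm38391 on the opposite strand, which had at most 5.67 normalised counts. Plod3, the third lysyl hydroxylase and also a glycosyltransferase, was not among the 10 chosen genes, and went from 777 ± 69.5 to 1367 ± 174 (log2 0.81, SE 0.13, limma adjusted p = 0.00117).

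**Figure D2:**
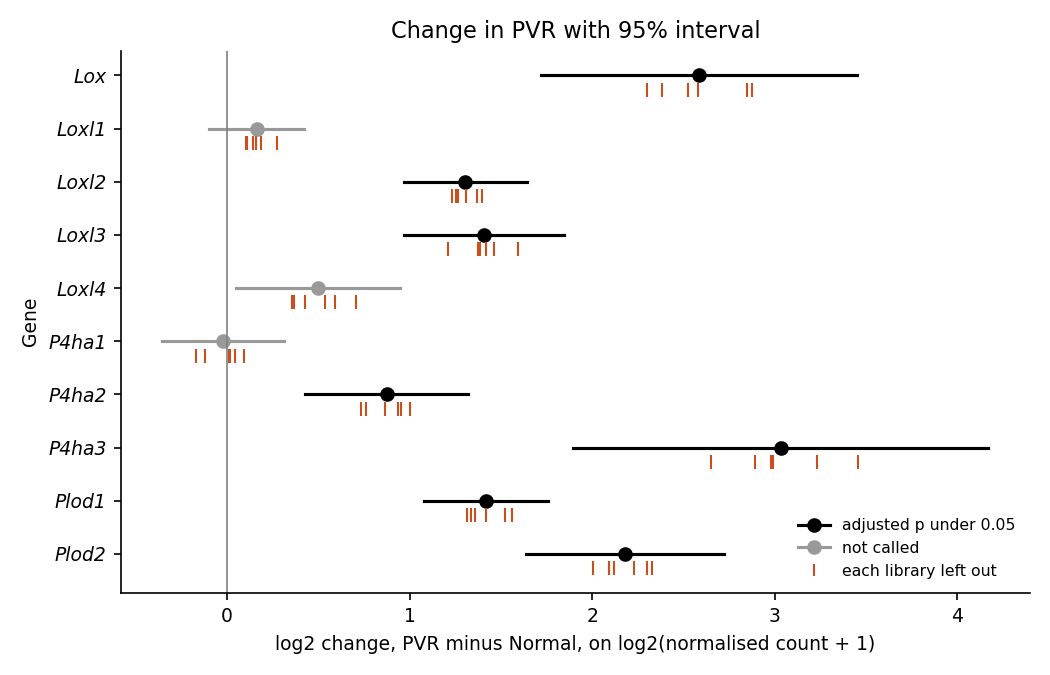
Log2 change of each enzyme (PVR minus Normal, on log2 of normalised count + 1) with its 95% interval, black where the limma adjusted p was under 0.05 and grey otherwise. Small marks give the value with each library left out. P4ha3 (3.03) and Lox (2.59) lie farthest right, and the interval of P4ha1 spans 0.

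Levels were set side by side between genes after division by exon length. That length joins all annotated exons of a gene and can exceed its main transcript, so the order between genes is approximate. In Normal cells, normalised counts per exon kb ran from Loxl1 (1329 ± 183) through P4ha1 (324 ± 37.5), Loxl4 (319 ± 50.3), Plod1 (69.5 ± 9.93), Lox (49.7 ± 17.2), Loxl3 (33.3 ± 2.38), Loxl2 (28.8 ± 2.80), P4ha2 (19.2 ± 3.25) and Plod2 (8.32 ± 1.58) to P4ha3 (1.31 ± 0.414). The neighbours P4ha1 and Loxl4, Plod1 and Lox, and Lox and Loxl3 overlapped in that order, while the other neighbours did not. The 3 highest were the 3 that were not called. In PVR cells Loxl1 remained highest per kb at 1479 ± 42.9. Loxl4 (457 ± 109), P4ha1 (321 ± 61.8), Lox (304 ± 118) and Plod1 (186 ± 30.5) followed, each overlapping the next. Loxl3 (90.7 ± 24.3) and Loxl2 (71.5 ± 7.48) overlapped, as did Plod2 (38.5 ± 8.70) and P4ha2 (35.4 ± 6.38), and P4ha3 (14.1 ± 7.45) was lowest. Per kb, the Lox libraries overlapped those of P4ha1 and Loxl4 in PVR, and lay far below both in Normal.

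The share of each gene within its family was set between the groups as well. Lox made up 2.64, 4.28 and 1.80% of the summed lysyl oxidase level per kb in Normal and 16.7, 11.8 and 8.83% in PVR. Loxl1 went from 73.6, 75.6 and 77.0% to 58.1, 58.3 and 69.3%. Both shares were apart between the groups, with PVR 3 nearest to Normal. P4ha1 held 93.7, 94.0 and 94.4% of the alpha subunit level in Normal and 86.9, 85.8 and 87.7% in PVR, so it remained the main alpha subunit transcript. P4ha2 held 5.56 ± 0.393% of that family in Normal and 9.57 ± 0.472% in PVR, and P4ha3 held 0.393 ± 0.175% and 3.63 ± 1.29%. Of the 3 lysyl hydroxylases, Plod3 had the largest share, 68.8 ± 3.22% in Normal and 57.5 ± 1.20% in PVR, while Plod2 was at 3.37 ± 0.839% and 7.28 ± 0.977%. Of the 11 shares, 10 did not overlap between groups, and Loxl4 (18.1 ± 1.84% and 18.9 ± 3.43%) did. Shares within a family add up to the whole, so a higher share of some genes lowers that of others. The 10 are thus not separate results, and how often shares in other gene families lie apart was not counted. The exact two-sided permutation test, without pairing, gave p = 0.1 for each of those 10 (Benjamini-Hochberg 0.11 over 11). A p of 0.1 is the smallest that 3 against 3 unpaired libraries allow, so no share could reach 0.05.

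**Figure D3:**
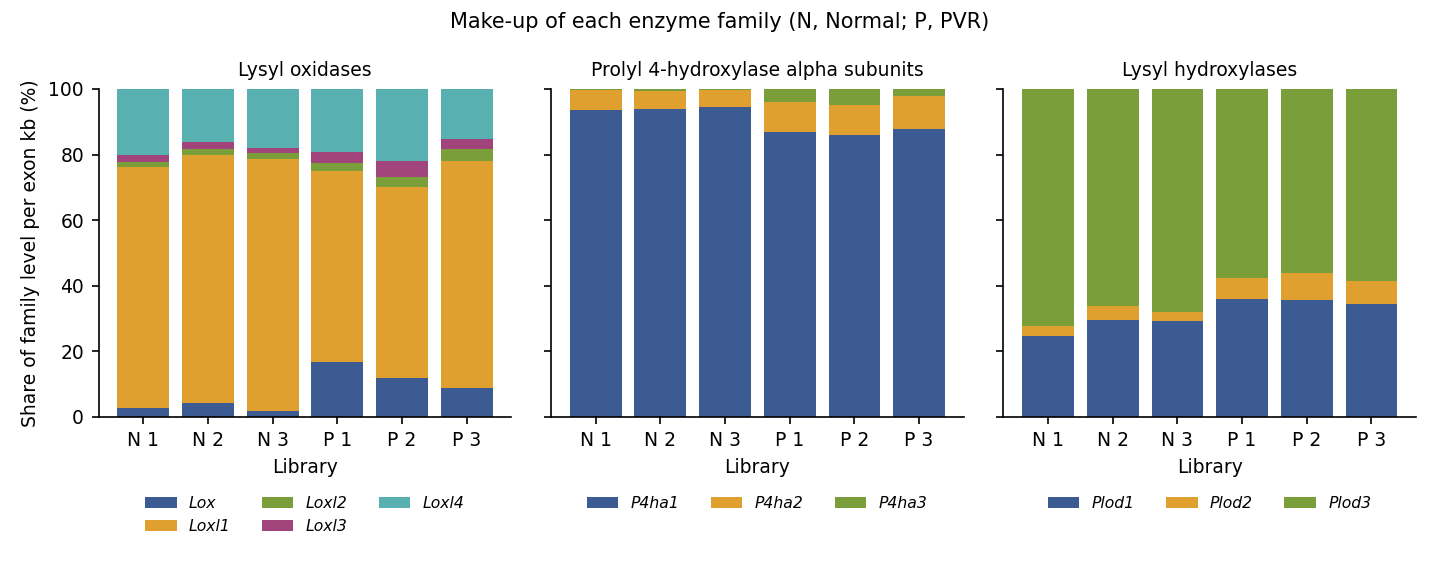
Share (%) of each gene in the summed normalised count per exon kb of its enzyme family, 1 bar per library (N, Normal; P, PVR). Lox takes 8.83 to 16.7% of the lysyl oxidases in PVR and 1.80 to 4.28% in Normal, and P4ha1 keeps at least 85.8% of the alpha subunits in each library.

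The fibrillar substrates of these enzymes rose in PVR. Beside this and each later gene list, 17.9% of all tested genes were called higher and 12.9% lower. Of 11 tested transcripts of fibrillar collagens and elastin, 8 rose (median log2 change 2.26), among them Col1a1 (699.8 ± 112 to 6769 ± 1815 normalised counts, log2 3.25, limma adjusted p = 5.54e-05), Col1a2 (903 ± 213 to 6372 ± 1478) and Col3a1 (597 ± 201 to 4102 ± 1129.8). Elastin, Eln, was at 142 ± 53.0 and 672 ± 492 (limma adjusted p = 0.0502), with PVR 1 at 1235 and PVR 2 at 321, and was not called. It was called in 8 of 17 alternatives: by edgeR (adjusted p = 0.012), by DESeq2 (adjusted p = 0.00364), by limma-voom (adjusted p = 0.0267), with a pseudocount of 0.5 (adjusted p = 0.0453), with a filter at 1 CPM (adjusted p = 0.0424), with the replicate block (adjusted p = 0.0155), without PVR 1 (adjusted p = 0.0262) and without PVR 2 (adjusted p = 0.0483). Its adjusted p ranged from 0.00364 to 0.209 over the alternatives. Summed per exon kb, the 9 fibrillar collagens in this comparison went from 362 ± 78.7 to 2475 ± 593, a 6.84-fold change. The lysyl oxidases together went from 1760.1 ± 209.5 to 2401 ± 190.9 (1.36-fold), the alpha subunits from 344 ± 40.1 to 371 ± 75.3 (1.08-fold) and the lysyl hydroxylases, Plod3 included, from 249.7 ± 19.8 to 528 ± 75.5 (2.11-fold).

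As a ratio of these sums per exon kb, lysyl oxidases over fibrillar collagens gave 4.01, 4.06 and 7.37 in the Normal libraries. The PVR libraries gave 0.971, 0.827 and 1.20. The size of each ratio depends on the annotated exon lengths, which are the same for every library. The alpha subunit ratio was 0.907, 0.754 and 1.31 against 0.132, 0.153 and 0.171. For lysyl hydroxylases it was 0.584, 0.589 and 1.002 against 0.211, 0.196 and 0.243. All 3 ratios were lower in each PVR library than in any Normal library, with exact two-sided permutation p = 0.1 each, the smallest possible here (Benjamini-Hochberg 0.1 over 3). The 3 ratios share 1 denominator, the fibrillar collagen sum, which rose 6.84-fold, so they are not separate results. These are ratios of transcripts, and neither protein nor enzyme activity was measured here.

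**Figure D4:**
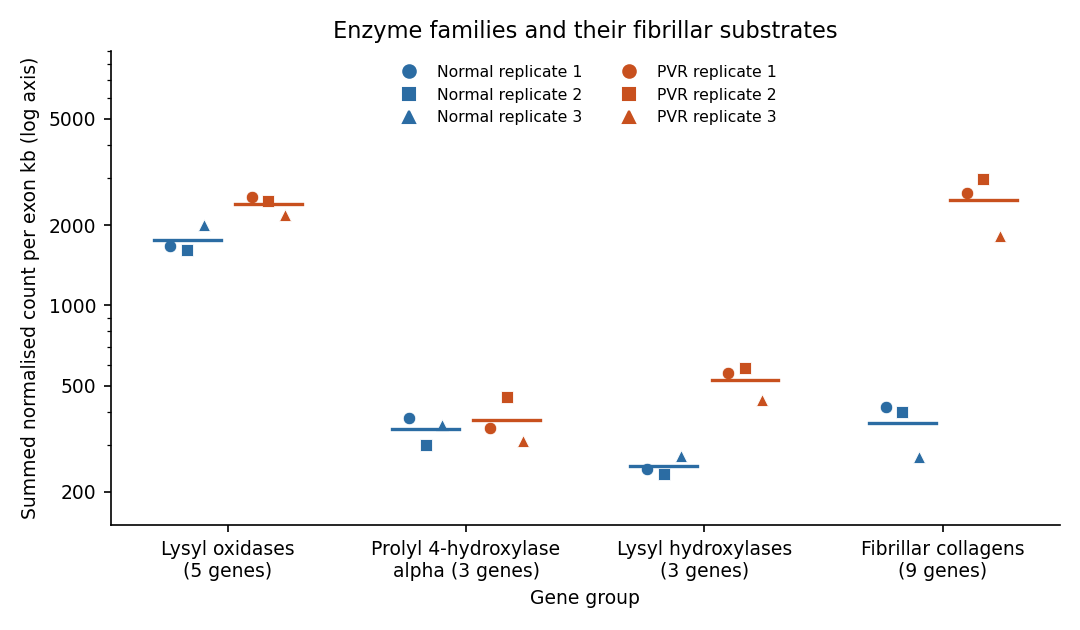
Summed normalised count per exon kb (log axis) of the lysyl oxidases (5 genes), prolyl 4-hydroxylase alpha subunits (3), lysyl hydroxylases (3) and fibrillar collagens (9), 1 point per library. The fibrillar collagens move 6.84-fold between the group means and the enzyme families 1.08-fold to 2.11-fold.

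Network and basement membrane collagens went both ways: of 13 tested, 7 rose and 4 fell, with a median log2 change of 0.46 (2 fell without Normal 1 or without Normal 3). Col4a1 (434 ± 112 to 1807 ± 550.1 normalised counts) and Col4a2 (596 ± 51.5 to 1488 ± 237) rose, while Col4a3 (10919 ± 1464 to 6669 ± 895) and Col4a4 (12769.9 ± 2158 to 7997 ± 1076), the chains of specialised epithelial basement membranes, fell.

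Partners of the enzymes in the endoplasmic reticulum mostly rose. Of 24 tested genes of collagen folding and export, 15 rose and 1 fell (median log2 change 0.53). P4hb, the beta subunit without which the alpha subunits are inactive, was at 2893, 3168 and 3589.9 normalised counts in Normal and at 8253, 8489 and 6652 in PVR (log2 1.27, SE 0.13, limma adjusted p = 0.000155). Unlike P4ha1, it did not overlap between the groups. Fkbp10, a prolyl isomerase that assists Plod2 in telopeptide hydroxylation, went from 92.3 ± 2.87 to 367 ± 78.5 (log2 1.96, limma adjusted p = 0.00013). P3h1, a prolyl 3-hydroxylase, went from 299 ± 10.8 to 598 ± 83.8. The gene that fell was Serpinh1, which encodes the collagen chaperone HSP47, at 12596, 5639 and 9494 in Normal and 4459, 4695 and 4424 in PVR (log2 -0.95, SE 0.27, limma adjusted p = 0.0371). Its Normal libraries spread widely, and the call was lost without Normal 1 (adjusted p = 0.0502), without Normal 3 (adjusted p = 0.111) and without any 1 of the PVR libraries (adjusted p = 0.109 to 0.116). Over all alternatives its adjusted p ranged from 8.1e-05 to 0.252.

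Outside the cell, 6 of 7 tested propeptide-processing genes rose (median log2 change 2.02). Among the risers, Adamts3 had 0, 4 and 4 reads in Normal 1, 2 and 3, and Adamts14 had 0, 6 and 3. Both passed the filter on low counts only through their PVR libraries, so their rises add little to the count. Bmp1, the protease that cleaves the C-propeptide of collagen and also activates the Lox proenzyme, was at 473, 517 and 508 normalised counts in Normal and 1745, 1524 and 1078 in PVR (log2 1.51, SE 0.17, limma adjusted p = 0.000254). Its enhancer Pcolce went from 7336 ± 232 to 29674 ± 1021 (log2 2.02, limma adjusted p = 5.96e-06). Of 14 tested genes of matrix assembly that bind lysyl oxidases or their fibres, 8 rose (median log2 change 1.12), including Fn1, fibronectin (366 ± 125 to 6171 ± 2227), Postn, periostin (24.1 ± 5.89 to 359.8 ± 157), and Tgm2, a transglutaminase that crosslinks matrix by another chemistry (115 ± 51.2 to 1459 ± 388).

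Cofactor supply showed no common direction, beside 17.9% of all tested genes called higher and 12.9% lower. Of 12 tested copper genes, 2 rose and 3 fell, with a median log2 change of -0.09. With the replicate block 4 rose, as also without Normal 2 and PVR 3, and the count of falls was 0 without Normal 3 and 1 without PVR 2. Atp7a, the pump that loads copper into lysyl oxidases, rose from 1429.9 ± 135 to 2392 ± 329 normalised counts (log2 0.74, limma adjusted p = 0.00213), and Steap3, a metalloreductase, from 91.6 ± 14.98 to 323 ± 38.7. Slc31a1, the copper importer, fell from 3088 ± 342 to 2335 ± 114 (limma adjusted p = 0.0209), which no longer passed without Normal 3 (adjusted p = 0.0722) or PVR 2 (adjusted p = 0.0710); the alternatives gave 0.00625 to 0.0800. Of 12 tested genes for ascorbate and 2-oxoglutarate, 3 rose (1 without Normal 1 or without PVR 2), with a median log2 change of 0.07. Slc23a2, an ascorbate transporter, was at 2261 ± 254 and 2183 ± 187 (limma adjusted p = 0.785).

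Over all these folding, processing, assembly, cofactor and substrate genes, 49 of 93 tested rose and 8 fell. Of all tested genes, 17.9% were called higher and 12.9% lower. The median log2 change was 0.81 over the 93 and -0.02 over all tested genes. The falls among these partner genes numbered 4 without Normal 1, 2 without Normal 3 and 4 without PVR 2. The lists were assembled with earlier results of these data known.

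Readouts of hypoxia and TGF-beta, both known regulators of these enzymes, were also listed. Among all tested genes, 17.9% were called higher and 12.9% lower. Of 21 tested hypoxia genes, 6 rose and 3 fell, with a median log2 change of 0.28 (1 fell by edgeR, and 1 without Normal 1, Normal 3 or PVR 2). Adm went from 17.6 ± 5.03 to 177 ± 67.6 normalised counts and Ldha, lactate dehydrogenase, from 1533 ± 251 to 3324 ± 345, while Vegfa fell from 17511 ± 3465 to 7893 ± 856 (log2 -1.14, limma adjusted p = 0.000599). Of 15 tested TGF-beta genes, 9 rose (median log2 change 1.09), among them Ccn2, connective tissue growth factor (1130.4 ± 74.6 to 3326 ± 257), Pmepa1 (483 ± 72.8 to 2372 ± 484) and Acta2, smooth muscle actin (2337 ± 379 to 4987 ± 827). Whether either pathway acted on the enzymes was not tested.

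Markers of other cells moved with the enzymes. Of 20 tested macrophage markers, 18 rose and 1, Csf1r, fell (0 fell without Normal 3, PVR 1 or PVR 2), with a median log2 change of 4.40. Their summed normalised counts were 10842 to 12243 in Normal, of which Csf1r alone averaged 10038 ± 998, and 67191, 91973 and 37441 in PVR 1, 2 and 3. Itgam, a defining macrophage marker, was at 3.87 ± 2.58 in Normal and 248 ± 98.3 in PVR. Itgam passed the filter on low counts only through its PVR libraries, so it was tested only because it was high there. Of 13 tested fibroblast markers, 9 rose and 1 fell (median log2 change 1.30), and their sum was 9197 to 11942 in Normal and 13304 to 18341 in PVR. Tcf21 was at 0 in each Normal library and at 1.89 to 4.12 in PVR. These values lie around the limit of 3 reads (2.72 to 3.42 normalised counts), so they show no difference for Tcf21. Pdgfra went from 128 ± 36.0 to 442 ± 36.7. PVR 3, which had the lowest sum of macrophage and of fibroblast markers among the PVR libraries, also had the lowest PVR value for 8 of the 10 enzymes, 6 of the 7 called ones included. That library also lay nearest to Normal over all tested genes (correlation 0.929 to 0.935). How often it was the lowest PVR library over all genes was not counted. The part of macrophages and fibroblasts in the enzyme changes was not tested.

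Markers of further cell types were listed as well, beside 17.9% of all tested genes called higher and 12.9% lower. Of 9 tested pericyte and smooth muscle markers 3 rose, with sums of 2853 to 3377 in Normal and 3238 to 3989 in PVR, which overlap. With the replicate block 2 markers of this list fell, as also without PVR 3. Endothelial markers gave 0 calls of 11 by limma (1 at an unadjusted p under 0.05), with 1 rise under the replicate block and without Normal 1 or Normal 2, and their sums overlapped at 355 to 1114 and 935 to 1507. Müller and astrocyte markers gave 1 rise of 7 (0 with the replicate block, 2 without Normal 2, and 0 without any other single library). Photoreceptor markers gave 1 fall of 12, with 3 rises under the replicate block and without Normal 2. Their median log2 change was 0.77, while their sums were apart in the other direction, at 4073 to 5159 in Normal and 2498 to 3485 in PVR. A sum follows its most abundant genes, so it does not show that most of these markers fell. Melanocyte and Schwann markers gave 2 rises and 2 falls of 7, with 1 rise without Normal 1, Normal 2, PVR 1 or PVR 3 and 1 fall without Normal 2 or PVR 2. The median log2 change of the melanocyte and Schwann markers was 0.20, while their sums were also lower in PVR, at 5829 to 6419 in Normal and 4889.6 to 5513 in PVR. The Müller and astrocyte sums overlapped, at 145219 to 148483 and 131031 to 187308.

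Among the genes whose pattern over the 6 libraries lay nearest to that of P4ha3, the enzyme with the largest log2 change at a pseudocount of 1, were Prex1, Htra1, Emilin2 and Tmsb4x. Nearness was the root mean square distance of centred log2 values among 9287 candidates, and it was 0.23 for Prex1 and 0.26 for Htra1, a secreted protease that went from 796 ± 188 to 6000 ± 1595 normalised counts. Emilin2, an elastic fibre glycoprotein (distance 0.26), went from 49.3 ± 20.05 to 488 ± 193. Among the other enzymes Lox (0.47) and Plod2 (0.53) were nearest. The P4ha3 values rest on few reads, so the order of such neighbours is loose.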

How the data were processed

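The 3 Normal and 3 PVR libraries, grouped by their titles, were made from TRIzol extracts of primary RPE cells, per the labels. Each deposited signal is a normalised one: the authors divided read counts by 1 size factor per library, as the values themselves show, since 100% gave whole reads within 0.001 reads. The submitters' processing notes name mm10 and DESeq2, with no role for either. The aligner, the counter and its strand setting were not given in these sources. Of the 28043 symbols, 27362 matched GENCODE M21 (GRCm38), which gave coordinates and exon lengths, and 26 names that are dates hold 0.102% of the reads. Promoters are from RefSeq (GRCm38.p6), leaving out those on chromosome 18.

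Genes were tested in R 4.3.3 with limma 3.58.1, fitted to log2(normalised count + 1) with trend and robust moderation and no block, on 15766 genes that passed filterByExpr of edgeR (minimum count 10). The plan foresaw raw counts and edgeR; the values proved normalised. Single shares and ratios were tested by exact permutation. Alternatives were edgeR 4.0.16 and DESeq2 1.42.0 on recovered reads, limma-voom, pseudocounts of 0.5 and 8, no filter and a filter of 1 CPM, scaling to library totals, a replicate block, each library left out, replicates 1 and 2 only, and, chosen after seeing the data, leaving out Normal 2 and PVR 3. The fits were tested on simulated data. Same-numbered libraries deviated together (correlations 0.206, 0.195 and 0.179 for replicates 1, 2 and 3). Pairing by number thus rests on the data and not on a label. It was used in the replicate block only, while the main fit and the permutation tests were unpaired. Named genes were all 10 enzymes, a set of key partners, up to 4 called genes per list and direction by smallest p, and the 5 nearest genes to the enzyme with the largest rise or fall, of which 1 is not reported here. Best1, Tcf21, Tgm2, Slc23a2 and the overlapping genes Htra2, Gm27177 and Gm38391 were named after their values were seen. The enzymes and lists were chosen with earlier results of these data known.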

Additional observations from a re-analysis of the deposited data

How the results depend on the processing

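The 7 enzymes called higher kept direction and call under all 17 alternatives, among them the replicate block, with which 7 rose, 0 fell and no enzyme's call changed. With that pairing, 3079 genes were higher and 2249 lower over all tested genes. The log2 change of P4ha1 turned sign, to 0.12 with replicates 1 and 2 only, and ranged from -0.17 to 0.092 with single libraries left out; it was not called in any of them. The count of collagen partner genes that fell (8) was 3 with replicates 1 and 2 only, 5 without Normal 2 and PVR 3, and 2 to 6 with single libraries left out. Over all tested genes 1307 to 2026 were lower with 1 library left out, against 2033, the lowest count being without Normal 1. The causes were not tested, though these fits have fewer samples. Low counts limit P4ha3 in Normal cells, where 3 to 6 reads per library set its level.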
